A study of Mus musculus with 12 samples.

Results

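The DNA replication machinery was followed through 47 named genes in 11 roles, which cover the origin recognition complex (ORC), the factors that license origins, the MCM2-7 helicase and the proteins that activate it, the 3 replicative polymerases, the sliding clamp and its loader, replication protein A, Okazaki fragment maturation, nucleotide supply and the maintenance of DNA methylation at the fork. The genes were chosen by name and function, with earlier results of these data known. Of the 47, 44 had a row on the Aroma table, which held 18430 named genes in all, and each of the 44 had 1 row. Rpa3 and Rrm2 were found on neither table by symbol, and Rfc4 was found only on the Expression Console table.

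The study asked which transcripts separate resident microglia of the brain from monocytes of the bone marrow. Brainstem microglia (BSM) were sorted as CD11b+ CD45low CD115low Ly6G- cells and bone marrow-derived monocytes (BMDM) as CD11b+ CD45high CD115+ Ly6G- cells, all by flow cytometry and all from C57BL/6 mice of 6 weeks, for which the labels give no treatment and no engineered allele. Each RNA sample came from cells pooled over mice, was amplified, and was hybridised to an Affymetrix Mouse Exon 1.0 ST array, with 3 BSM arrays and 3 BMDM arrays. The 6 arrays were summarised by 2 programs, Aroma and Expression Console, which gave 12 deposited samples. Replicate 1 of each cell type was labelled female and replicates 2 and 3 male, and the replicate 1 pools were also used for sequencing. The study's main text describes the mice as male, while its supplement lists both replicate 1 pools as female, as the labels do. The study's own accounts of their sex therefore differ.

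Eukaryotic replication starts when ORC marks an origin and Cdc6 and Cdt1 load the MCM2-7 ring onto it in G1. In S phase kinases and loading factors turn that ring into an active helicase with Cdc45 and GINS, and polymerases alpha, epsilon and delta copy the strands behind it. Many of these genes are transcribed under E2F factors as cells leave G1 and are low in resting cells, whereas most ORC subunits stay present outside S phase. Microglia of the adult brain are long-lived cells that divide slowly, and the bone marrow is where monocytes arise from dividing precursors.

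The RefSeq promoter table (build GRCm38.p6) gave 50 promoters of 300 bases, 250 before to 50 after each annotated start, for 39 of the 47 genes. The 8 genes with no entry were Mcm4, Gmnn, Gins1, Gins2, Gins4, Rfc2, Prim2 and Pole. The promoters below belong to the gene with the largest fall in each of 5 roles, taken among the leading genes with an entry, and are shown whether or not they hold an E2F motif. They run 5′ to 3′ on the strand of the gene, and capitals mark each match to 1 of the 4 forms TTTCCCGC, TTTCGCGC, TTTGCCGC and TTTGGCGC, read on both strands, where overlapping matches run together.
Mcm6 (chr1:128359656-128359955, minus strand): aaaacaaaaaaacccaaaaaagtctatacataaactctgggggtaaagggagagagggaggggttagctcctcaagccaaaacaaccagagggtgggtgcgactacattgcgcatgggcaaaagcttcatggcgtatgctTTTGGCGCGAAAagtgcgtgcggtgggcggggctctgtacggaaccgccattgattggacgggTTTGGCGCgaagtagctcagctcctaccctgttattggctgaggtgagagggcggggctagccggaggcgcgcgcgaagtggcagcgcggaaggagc
Uhrf1, downstream start (chr17:56304063-56304362, plus strand): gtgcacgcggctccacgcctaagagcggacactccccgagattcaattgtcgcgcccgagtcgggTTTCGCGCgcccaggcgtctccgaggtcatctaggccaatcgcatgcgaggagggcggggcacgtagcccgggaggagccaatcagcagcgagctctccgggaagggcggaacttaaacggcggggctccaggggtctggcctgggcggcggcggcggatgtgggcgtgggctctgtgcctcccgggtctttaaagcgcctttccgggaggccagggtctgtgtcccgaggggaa
Uhrf1, upstream start (chr17:56303087-56303386, plus strand): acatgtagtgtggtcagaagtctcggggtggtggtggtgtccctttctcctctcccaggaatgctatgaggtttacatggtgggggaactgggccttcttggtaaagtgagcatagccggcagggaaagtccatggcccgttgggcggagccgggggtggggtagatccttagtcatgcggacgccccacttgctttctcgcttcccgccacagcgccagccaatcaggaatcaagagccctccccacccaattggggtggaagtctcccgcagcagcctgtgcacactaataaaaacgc
Cdc45 (chr16:18811923-18812222, minus strand): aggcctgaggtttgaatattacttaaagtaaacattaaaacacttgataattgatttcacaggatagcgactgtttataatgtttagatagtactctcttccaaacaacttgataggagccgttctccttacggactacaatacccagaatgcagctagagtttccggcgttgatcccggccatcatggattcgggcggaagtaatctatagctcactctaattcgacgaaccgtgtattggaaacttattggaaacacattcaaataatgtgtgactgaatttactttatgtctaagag
Prim1 (chr10:128014965-128015264, plus strand): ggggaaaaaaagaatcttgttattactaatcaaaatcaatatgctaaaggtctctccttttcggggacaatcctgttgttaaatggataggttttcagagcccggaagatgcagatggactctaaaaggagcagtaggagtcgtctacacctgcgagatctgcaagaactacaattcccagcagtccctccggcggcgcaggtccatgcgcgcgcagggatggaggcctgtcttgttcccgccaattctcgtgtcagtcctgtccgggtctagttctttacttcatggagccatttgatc
Rrm1 (chr7:102441445-102441744, plus strand): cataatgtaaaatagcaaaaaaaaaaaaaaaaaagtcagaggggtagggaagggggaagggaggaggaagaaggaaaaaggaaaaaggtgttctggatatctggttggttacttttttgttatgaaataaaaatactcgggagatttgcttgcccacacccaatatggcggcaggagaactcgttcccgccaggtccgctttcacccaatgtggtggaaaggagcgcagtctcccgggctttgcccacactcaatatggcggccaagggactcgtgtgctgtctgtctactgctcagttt

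The Mcm6 promoter held 3 matches, 2 of them overlapping, and the downstream Uhrf1 promoter held 1. No match lay in the windows of Cdc45, Prim1 and Rrm1. Over the 50 promoters 16 held the E2F motif, or 32.0%, each for a different gene. The share was 3.04% of the 18151 promoters of genes on the Aroma table and 2.26% of all 32851 promoters. Windows of 30 bases around the first match are shown for the other MCM2-7 genes that had one, for the licensing factor Cdc6, and for Orc1 and Orc3, whose levels moved far less than those of the MCM genes.
Mcm3 (chr1:20820275-20820304, minus strand): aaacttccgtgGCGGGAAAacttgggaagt
Mcm5 (chr8:75109345-75109374, plus strand): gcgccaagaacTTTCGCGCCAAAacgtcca
Mcm7 (chr5:138172030-138172059, minus strand): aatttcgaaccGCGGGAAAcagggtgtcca
Cdc6 (chr11:98908002-98908031, plus strand): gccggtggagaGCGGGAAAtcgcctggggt
Orc1 (chr4:108579416-108579445, plus strand): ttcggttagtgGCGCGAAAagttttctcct
Orc3 (chr4:34614965-34614994, minus strand): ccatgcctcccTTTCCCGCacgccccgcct

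Of the MCM2-7 genes with an entry, Mcm2 was the 1 without a match. A shorter 7-letter core that drops the first T of each form, tried after the promoters were seen, was found in 28 of the 50 promoters (56.0%), against 13.12% of promoters of genes on the Aroma table. The CHR element (TTTGAA, both strands), known from genes of late cell cycle, was in 6 of the 50 promoters and in 72.22% of 18 promoters of mitotic genes, against 14.55% on the Aroma table. A CCAAT box (CCAAT, both strands) was in 58.0% of the replication promoters, 83.33% of the mitotic promoters and 37.3% of those on the Aroma table. A match is a run of letters and not a measured binding site.

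Before the replication genes were read, the labels were checked against marker genes. All 9 microglial markers measured were higher in BSM, and all 6 monocyte markers were lower. By the same call, an adjusted p under 0.05, 28.0% of all 21837 Aroma rows were higher in BSM and 21.6% lower. Marker genes of other marrow cells also differed between the cell types. Neutrophil and precursor genes fell in 9 of 9 cases, and the mean level over those genes on an array was 4.42 to 4.71 in BSM and 8.55 to 8.92 in BMDM, in log2 Aroma intensity. The myeloperoxidase gene Mpo stood at 4.62, 4.50 and 4.50 in BSM, against 12.005, 11.8 and 11.1 in BMDM. Of 7 erythroid genes 5 were lower in BSM, with mean levels of 5.03 to 5.19 in BSM and 6.49 to 7.04 in BMDM, and of 7 progenitor genes 4 were lower and 2 higher, with mean levels of 6.10 to 6.17 in BSM and 5.94 to 6.42 in BMDM. The stem and progenitor gene Myb, the largest fall of that list, stood at 4.46, 4.67 and 4.40 in BSM, against 8.13, 8.01 and 7.57 in BMDM. The 2 higher progenitor genes were Cd34, by 3.95, and Sox4, by 2.62. Of 5 B cell genes 3 were lower and 1 higher, and of 7 T and NK cell genes 1 was lower. Of 7 dendritic cell genes 3 were lower and 3 higher, and of 6 astrocyte genes 4 were higher. Of 9 oligodendrocyte genes 1 was lower and 2 higher, and of 5 neuron genes 1 was lower and 1 higher. Of 6 endothelial and mural genes 1 was higher. With lists this short, several of these counts lay near the shares of all rows. Between the cell types most neutrophil and erythroid markers moved with the replication genes. Among the BMDM arrays most of these markers did not, as set out below. The part of these markers in the results was not tested. In RNA from a sorted pool, fewer replicating cells and less of each transcript per cell cannot be told apart.

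The replication genes as a group were low in BSM. Of the 44 genes measured, 40 were lower in BSM by limma at an adjusted p under 0.05, 2 were higher (Orc3 and Orc4) and 2 did not pass (Orc2 and Orc5). Over all 21837 Aroma rows 21.6% were lower and 28.0% higher. A fall of at least 2-fold that passed the test was found for 36 of the 44, against 9.24% of all rows. The median difference, BSM minus BMDM, was -1.77 on the log2 scale, a 3.42-fold lower level, while the median of all rows was 0.18. The 3 BSM arrays lay below the 3 BMDM arrays for 41 genes, as they did for 24.4% of rows, and above them for Orc3, Orc4 and Orc5, as they did for 36.4% of rows. No gene of the 44 overlapped between the cell types.

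**Figure D1:**
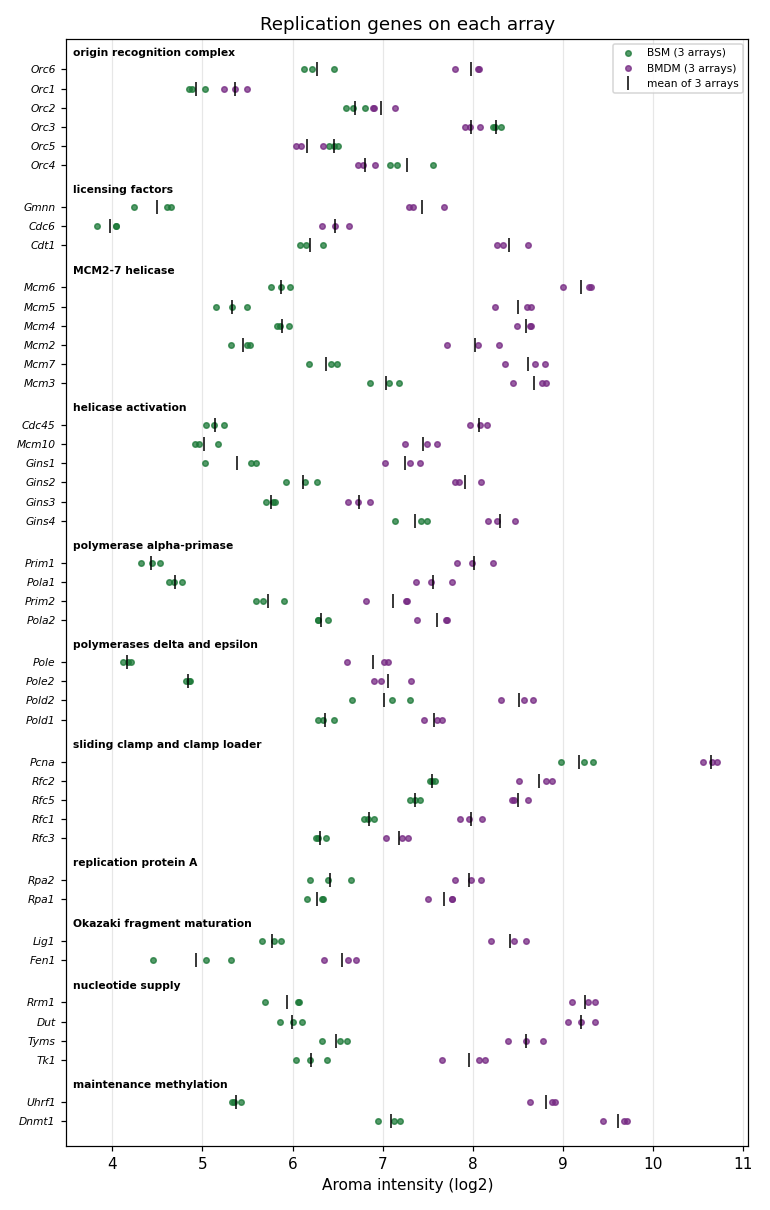
Level of each of the 44 replication genes on each array, in log2 Aroma intensity on the horizontal axis, with genes grouped by role down the page. Green points are the 3 BSM arrays, purple points the 3 BMDM arrays, and black ticks their means; BSM points sit left of BMDM points for 41 genes, and right of them for Orc3, Orc4 and Orc5.

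The differences ranged from -3.59 for Prim1 to 0.46 for Orc4. A fall of 2 or more log2 units was measured for 20 genes, and of 3 or more for 6, namely Prim1, Uhrf1, Mcm6, Rrm1, Dut and Mcm5. By role the median difference was -2.98 for maintenance methylation, -2.66 for nucleotide supply, -2.64 for the MCM2-7 helicase, -2.50 for licensing factors, -2.13 for Okazaki fragment maturation, -2.13 for polymerase alpha-primase, -1.86 for polymerases delta and epsilon, -1.83 for helicase activation, -1.47 for replication protein A, -1.15 for the clamp and clamp loader and -0.01 for ORC. Outside ORC, all 38 measured genes were called lower.

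**Figure D2:**
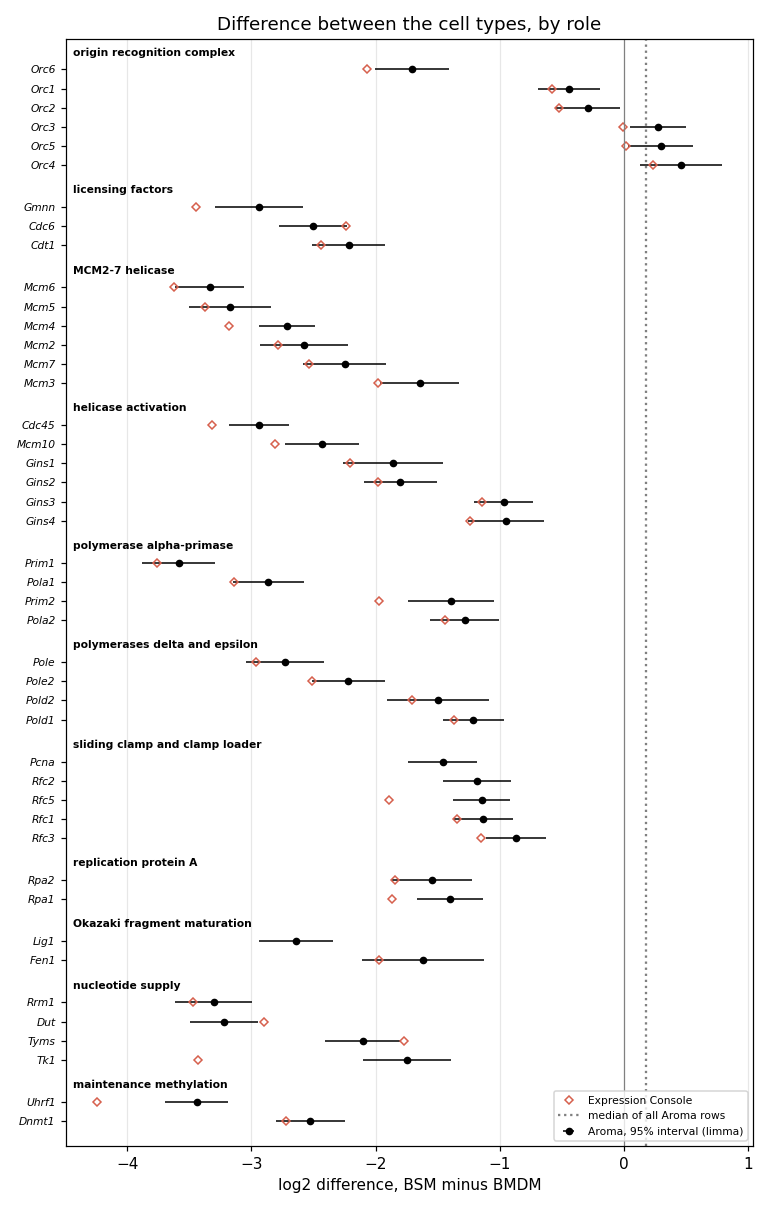
Difference between the cell types, BSM minus BMDM on the log2 scale, for each replication gene grouped by role. Filled points are the Aroma differences with 95% intervals from limma, open diamonds the Expression Console differences where the gene was found, and the dotted line the median of all Aroma rows at 0.18; every role but ORC lies wholly to the left of 0.

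Among the roles ORC had the smallest median difference, over subunits that ranged from -1.71 for Orc6 to 0.46 for Orc4. Orc6, the smallest subunit, was the 1 that fell as the rest of the machinery did. Its level was 6.22, 6.47 and 6.12 in BSM, against 8.06, 8.07 and 7.80 in BMDM. The arrays of the cell types were well apart, with a difference of -1.71 (SE 0.13, adjusted p = 1.3e-05). Orc1, the subunit whose protein is degraded and remade through the cell cycle in human cells, was lower by a smaller step, at -0.44 (SE 0.11, adjusted p = 0.011). Its mean levels of 4.92 in BSM and 5.37 in BMDM were low, and the BSM signal was dim, as set out below. The small step is therefore that of the measured signals.

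Orc2, a core subunit, measured 6.67, 6.60 and 6.80 in BSM, against 6.91, 7.14 and 6.89 in BMDM. All BSM arrays lay below the BMDM arrays but by little, and the difference of -0.29 (95% interval -0.55 to -0.03) had an adjusted p of 0.065. In the Expression Console values Orc2 was lower at -0.53 (adjusted p = 0.012), and it passed the test in 5 of the 18 alternative analyses.

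Orc3 stood at 8.25, 8.31 and 8.23 in BSM, against 7.96, 8.08 and 7.92 in BMDM. The BSM arrays were the higher ones by 0.28 (SE 0.10, adjusted p = 0.044). The Expression Console difference was -0.0070 (adjusted p = 0.97), and centring each array on its median left 0.09 (adjusted p = 0.59). Besides Expression Console the call was lost in 9 alternatives, among them each of the 6 that left out an array, with adjusted p-values of 0.057 to 0.12.

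Orc4 measured 7.56, 7.08 and 7.16 in BSM, against 6.78, 6.92 and 6.73 in BMDM. BSM replicate 1 stood above the other BSM arrays, and all 3 were above BMDM, by 0.46 on average (SE 0.14, adjusted p = 0.029). Without BSM replicate 1 the difference was 0.31 (adjusted p = 0.053), and by Expression Console 0.23 (adjusted p = 0.33). The call was also lost without BMDM replicate 1 (adjusted p = 0.078), without BMDM replicate 3 (adjusted p = 0.081) by the methods' t-test on linear values (adjusted p = 0.12), by analysis of variance (adjusted p = 0.09) and after centring each array on its median, where the difference was 0.27 (adjusted p = 0.16). Orc5 was at 6.46, 6.41 and 6.50 in BSM, against 6.09, 6.34 and 6.04 in BMDM, a difference of 0.30 (95% interval 0.04 to 0.55, adjusted p = 0.058). It passed the test in 4 alternatives, 1 of them without BMDM replicate 2, where the difference was 0.39 (adjusted p = 0.031). Set against the median of all rows, the differences were 0.10 for Orc3, 0.28 for Orc4 and 0.12 for Orc5.

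The 3 licensing factors were all lower in BSM. Geminin (Gmnn), the inhibitor that keeps Cdt1 from reloading origins, had levels of 4.24, 4.61 and 4.65 in BSM, against 7.34, 7.68 and 7.29 in BMDM. The difference was -2.94 (SE 0.16, adjusted p = 1.4e-06), or 7.66-fold. Cdt1, the factor that brings the MCM ring to ORC, measured 6.09, 6.15 and 6.34 in BSM, against 8.27, 8.61 and 8.34 in BMDM, a difference of -2.22 (SE 0.13, adjusted p = 2.3e-06). Cdc6, the ATPase that loads the ring with Cdt1, differed by -2.50 (SE 0.12).

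All 6 subunits of the MCM2-7 ring, the motor of the replicative helicase, were lower in BSM by at least 2-fold. Mcm6 was the subunit with the largest fall, at 5.76, 5.87 and 5.97 in BSM, against 9.31, 9.29 and 9.01 in BMDM. No BSM array came near a BMDM array, and the difference of -3.33 (SE 0.12, adjusted p = 1.5e-07) was 10.1-fold. Mcm3 had the smallest fall, with 6.86, 7.18 and 7.07 in BSM, against 8.77, 8.82 and 8.45 in BMDM, a difference of -1.64 (SE 0.14, adjusted p = 2.4e-05). The other subunits lay between these, with -3.17 for Mcm5, -2.71 for Mcm4, -2.58 for Mcm2 and -2.25 for Mcm7. The ring holds 1 copy of each subunit, while the falls spanned 3.12-fold to 10.1-fold.

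Among the 6 genes that turn the ring into a working helicase, Cdc45 had the largest fall. This subunit of the active helicase measured 5.04, 5.24 and 5.12 in BSM, against 8.08, 8.16 and 7.97 in BMDM, a difference of -2.94 (SE 0.10, adjusted p = 1.4e-07). Mcm10, which is needed for the helicase to start, differed by -2.43 (SE 0.13). The GINS complex, a further part of the active helicase, was uneven, with -1.86 for Gins1, -1.80 for Gins2, -0.97 for Gins3 and -0.95 for Gins4. Gins4 had 7.14, 7.50 and 7.42 in BSM, against 8.26, 8.47 and 8.17 in BMDM, so that the cell types were separate but closer than for Cdc45 (SE 0.13, adjusted p = 5.1e-04).

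Polymerase alpha-primase lays down the RNA-DNA primers of both strands. Its catalytic primase subunit Prim1 had the largest fall of all 44 genes, at 4.45, 4.52 and 4.32 in BSM, against 7.99, 8.23 and 7.83 in BMDM. The difference was -3.59 (SE 0.13, adjusted p = 1.4e-07), and the arrays of the cell types were far apart. The catalytic polymerase subunit Pola1 differed by -2.86 (SE 0.12). The accessory subunits fell less, with -1.39 for Prim2 (SE 0.15), the large primase subunit, and -1.28 for Pola2 (SE 0.12, adjusted p = 4.6e-05). Pola2 measured 6.28, 6.40 and 6.28 in BSM, against 7.71, 7.71 and 7.38 in BMDM.

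Polymerase epsilon copies the leading strand and polymerase delta the lagging strand. Of the 4 genes in this role, both epsilon genes fell further than both delta genes. The catalytic subunit Pole was at 4.17, 4.20 and 4.12 in BSM, against 7.02, 7.06 and 6.60 in BMDM, a difference of -2.73 (SE 0.14, adjusted p = 1e-06), and its partner Pole2 differed by -2.22 (SE 0.13). The catalytic subunit Pold1 was at 6.46, 6.28 and 6.34 in BSM, against 7.66, 7.61 and 7.45 in BMDM, a difference of -1.21 (SE 0.11, adjusted p = 3.1e-05). Its partner Pold2 differed by -1.50 (SE 0.18). Further subunits, read in the wider list of fork genes, did not keep that order. They differed by -1.34 for Pole3, -0.75 for Pole4, -1.04 for Pold3 and -0.17 for Pold4, which did not pass. The BSM signals of Pole and Pole2 were also dim, as set out below. The difference between the polymerases was not itself tested.

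The sliding clamp and its loader had smaller falls than most of the machinery. PCNA, the ring that tethers polymerases and repair factors to DNA, measured 9.34, 8.98 and 9.23 in BSM, against 10.7, 10.7 and 10.6 in BMDM. BSM was lower on every array, with a difference of -1.46 (SE 0.12, adjusted p = 2.1e-05). The subunits of replication factor C, which opens the clamp and sets it on primed DNA, differed by -1.19 for Rfc2, -1.15 for Rfc5, -1.13 for Rfc1 and -0.87 for Rfc3. Rfc3, at 6.27, 6.28 and 6.38 in BSM, against 7.22, 7.28 and 7.04 in BMDM, had the smallest fall outside ORC (SE 0.11, adjusted p = 2.1e-04). Rfc4, read from the Expression Console table alone, had log2 levels of 6.05, 6.15 and 6.16 in BSM, against 7.59, 7.70 and 7.14 in BMDM, a difference of -1.35 (SE 0.16, adjusted p = 0.0020). All 5 clamp and loader genes on the Aroma table, and Rfc4, were therefore lower, by 1.83-fold to 2.75-fold.

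Replication protein A coats single-stranded DNA at the fork. Its subunit Rpa2 was at 6.20, 6.65 and 6.40 in BSM, against 8.09, 7.98 and 7.80 in BMDM, and differed by -1.54 (SE 0.14, adjusted p = 3.8e-05). Rpa1, the large subunit, was at 6.16, 6.34 and 6.32 in BSM, against 7.76, 7.77 and 7.50 in BMDM, and differed by -1.40 (SE 0.12, adjusted p = 2.1e-05). Both differences were larger than the spread among arrays of either cell type.

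Okazaki fragments are trimmed by the flap nuclease Fen1 and sealed by DNA ligase 1. Lig1 measured 5.66, 5.80 and 5.87 in BSM, against 8.60, 8.45 and 8.20 in BMDM, a difference of -2.64 (SE 0.13, adjusted p = 8.5e-07). Fen1 measured 5.04, 5.31 and 4.45 in BSM, against 6.61, 6.70 and 6.35 in BMDM, a difference of -1.62 (SE 0.21, adjusted p = 3.4e-04). BSM replicate 3 was the low array for Fen1, and its BSM SD of 0.44 was the highest of the 44 genes, yet its arrays did not overlap with BMDM.

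The 4 genes measured in the making of deoxynucleotides were all lower in BSM, by unequal steps. Rrm1, the large subunit of ribonucleotide reductase, had levels of 5.69, 6.07 and 6.06 in BSM, against 9.28, 9.36 and 9.10 in BMDM. The difference was -3.31 (SE 0.14, adjusted p = 3e-07), or 9.89-fold. The dUTPase gene Dut, whose enzyme keeps uracil out of DNA, differed by -3.22 (SE 0.12), and thymidylate synthase (Tyms) by -2.10 (SE 0.13). Thymidine kinase 1 (Tk1), the salvage enzyme of S phase, was at 6.20, 6.38 and 6.03 in BSM, against 8.13, 8.07 and 7.66 in BMDM, a difference of -1.75 (SE 0.15, adjusted p = 3.2e-05).

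Uhrf1 and Dnmt1 copy DNA methylation onto the new strand. Uhrf1, which finds hemimethylated sites, measured 5.35, 5.43 and 5.33 in BSM, against 8.87, 8.92 and 8.64 in BMDM, a difference of -3.44 (SE 0.11, adjusted p = 7.7e-08), or 10.8-fold. Dnmt1, the methyltransferase it recruits, measured 6.95, 7.20 and 7.12 in BSM, against 9.72, 9.68 and 9.44 in BMDM, a difference of -2.53 (SE 0.12, adjusted p = 7.4e-07). For both genes each BSM array lay below each BMDM array by more than the spread within a cell type.

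The arrays carry no detection call, so 1078 rows for odorant and vomeronasal receptors, a class of genes used mainly by sensory neurons, served as a guide to a dim signal. Their 95th percentile was a log2 level of 5.23 in BSM and 4.84 in BMDM. At or below it lay the BSM means of 10 replication genes, which were Mcm10, Orc1, Cdc6, Gmnn, Cdc45, Pola1, Prim1, Pole, Pole2 and Fen1, and the BMDM mean of none. For those 10 genes the BSM level could not be told from background by this guide, and the fold is that of the measured signals. The other 34 genes, among them the whole MCM2-7 ring, were above it in both cell types.

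The 2 programs gave close accounts of the same arrays. Of 42 replication genes found by Expression Console, 39 were lower in BSM, none was higher and 3 did not pass (Orc3, Orc4 and Orc5), against 20.5% of its rows lower and 8.38% higher. The median difference there was -2.03. Of the 41 genes read by both programs, 40 had the same sign and 38 the same call, and the Expression Console difference was the more negative for 38. Calls over all rows leaned differently, since 43.5% of the Aroma calls were lower in BSM, against 71.0% of the Expression Console calls and 64.0% of the Aroma calls after each array was centred on its median. Centring took the median of all rows to -0.01 and that of the replication genes to -1.96.

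Replicate arrays of a cell type differed in a shared direction for BMDM. BMDM replicate 3 was the lowest BMDM array for 42 of the 44 replication genes, while it was lowest for 30.58% of all rows. BMDM replicate 2 was the highest for 32 of the 44, against 32.72% of all rows. The median deviation from the BMDM mean was 0.04 in replicate 1, 0.11 in replicate 2 and -0.17 in replicate 3. BMDM replicate 3 was also the lowest BMDM array for 6 of 7 progenitor genes. It was the lowest for 3 of 9 neutrophil and precursor genes and for 0 of 7 erythroid genes. The 3 were Mpo, Prtn3 and Ctsg, and Mpo stood at 11.1 there, against 12.005 and 11.8 in the others. Ltf, Camp, Ngp, Lcn2, Retnlg and Ly6g were instead highest in BMDM replicate 3, with Lcn2 at 10.0, against 9.49 and 9.77. The part of these marker genes in the deviation was not tested. Without BMDM replicate 3 the count of lower genes was 40 and the median difference -1.88.

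**Figure D3:**
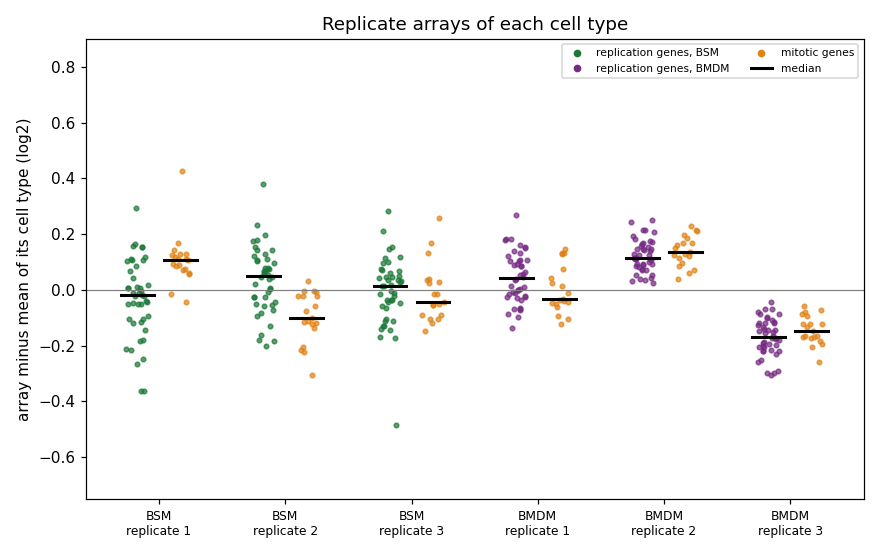
Deviation of each array from the mean of its own cell type, in log2 units, with BSM arrays on the left and BMDM arrays on the right. Each point is a gene, green or purple for the 44 replication genes and orange for 19 mitotic genes, and bars are medians; BMDM replicate 3 sits lowest, with medians of -0.17 for replication genes and -0.15 for mitotic genes.

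The BSM arrays showed a weaker lean for replication genes, whose median deviations were -0.02, 0.05 and 0.02 in replicates 1, 2 and 3. BSM replicate 1 was the highest BSM array for 11 of the 44, against 40.14% of all rows, and the lowest for 19, against 34.75%. BSM replicate 2 was the highest for 21, against 29.76%. For mitotic genes BSM replicate 1 was the highest BSM array in 16 of 19, although the BSM means of 14 lay at or below the receptor guide. The SD over 3 arrays had a median of 0.12 in BSM, with a range of 0.02 for Pole2 to 0.44 for Fen1, and a median of 0.16 in BMDM, with a range of 0.08 for Pcna to 0.29 for Mcm2. Sex and the shared use of the replicate 1 pools in sequencing cannot be told apart. With sex as a covariate 40 genes were lower in BSM.

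Further genes of the same pathway, taken from lists of known functions, were read in the same fit, where 21.6% of all rows were lower and 28.0% higher. Of 10 further genes of origin licensing and firing 9 were lower in BSM, with a median difference of -1.61. Wdhd1, which links polymerase alpha to the helicase, had the largest measured fall, at 4.79, 4.83 and 4.79 in BSM, against 7.82, 7.99 and 7.58 in BMDM (difference -2.996, SE 0.12, adjusted p = 2.9e-07). The BSM mean of Wdhd1 and of 3 others among the 10 lay below the receptor guide of 5.23, so that their differences and order are those of the measured signals. Donson, a fork protein, did not pass, at 0.15 (adjusted p = 0.22). Of 16 further fork genes 15 were lower, with a median of -1.47. Pclaf, a PCNA-binding factor, led them at 5.69, 5.26 and 5.30 in BSM, against 10.1, 10.3 and 10.2 in BMDM (difference -4.79, SE 0.14, adjusted p = 5.1e-08). The small polymerase delta subunit Pold4 did not pass, at -0.17 (adjusted p = 0.22).

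In the chromatin assembly list 6 of 7 genes fell, and the median difference was -1.89. The histone chaperone Asf1b had the largest fall, at 5.45, 4.96 and 5.57 in BSM, against 9.36, 9.66 and 9.33 in BMDM (difference -4.12, SE 0.17, adjusted p = 3.6e-07). Its paralog Asf1a did not pass, at -0.24 (adjusted p = 0.19), and the paralogs were read from separate rows. Of 6 further nucleotide genes 3 were lower, 1 was higher and 2 did not pass (Dctd and Shmt1), with a median of -0.47. The shares of all rows were 21.6% lower and 28.0% higher. Deoxycytidine kinase (Dck) was lower by the largest step, at -2.99 (SE 0.12, adjusted p = 3.2e-07). Rrm2b, the reductase subunit that serves cells outside S phase, was the 1 that was higher, at 6.63, 6.50 and 6.57 in BSM, against 6.03, 6.27 and 6.07 in BMDM (difference 0.44, SE 0.11, adjusted p = 0.0090).

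The E2F and DP transcription factors were read as the family known to drive many replication genes. In BSM 8 of the 10 fell and 2 rose, beside 21.6% of all rows lower and 28.0% higher. The repressor E2f8 had the largest measured fall, at 4.51, 4.64 and 4.37 in BSM, against 9.60, 9.86 and 9.50 in BMDM (difference -5.15, SE 0.13, adjusted p = 2.7e-08). In BSM E2f8, E2f2 and E2f7 lay below the receptor guide of 5.23, so that their levels there could not be told from background. E2f3 was higher in BSM, at 7.89, 7.70 and 7.94, against 6.68, 6.70 and 6.49 in BMDM (difference 1.22, SE 0.11, adjusted p = 4.3e-05). E2f5 was also higher, by 0.99 (SE 0.14, adjusted p = 5.4e-04).

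Mitotic genes, a list of 20 that act after replication, gave a side-by-side reading. The 19 genes measured all fell, against 21.6% of all rows. Their median difference was -4.44, with a range of -6.74 for Top2a to -3.11 for Aurka. Top2a, the topoisomerase that untangles sister DNA, measured 3.71, 3.47 and 3.57 in BSM, against 10.3, 10.5 and 10.2 in BMDM (SE 0.12, adjusted p = 8.6e-09). The BSM means of 14 of the 19, Top2a among them, lay below the receptor guide of 5.23, so that the sizes and order of these falls are those of measured signals against background. Aurka was not among the 14. Only 6 of the 44 replication genes had a fall larger than that of Aurka, the smallest among the mitotic genes. No test of the lists against each other was made.

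**Figure D4:**
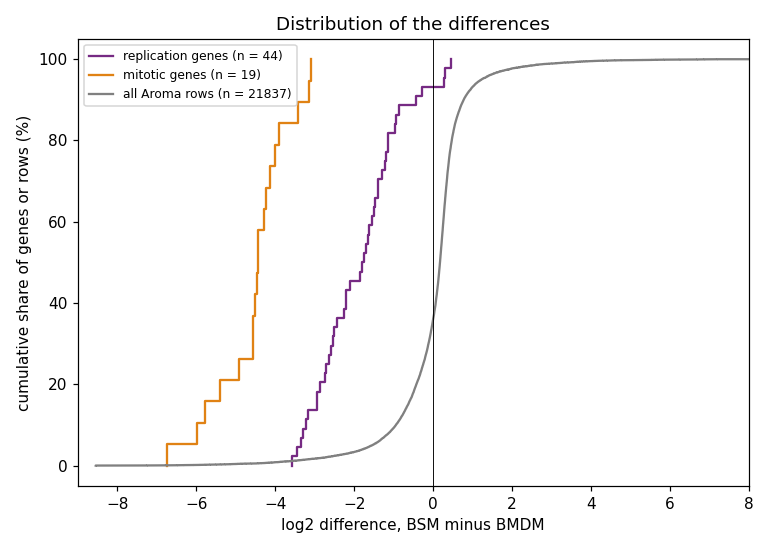
Cumulative share of genes or rows, in percent, against the difference BSM minus BMDM on the log2 scale. The purple line is the 44 replication genes (median -1.77), the orange line 19 mitotic genes (median -4.44) and the grey line all 21837 Aroma rows (median 0.18).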

How the data were processed

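Sorted and pooled BSM and BMDM cells were profiled on Mouse Exon 1.0 ST arrays, 3 per cell type. The authors made 2 tables from the same 6 arrays. The deposited Aroma values are linear intensity, made with the RMA background step, normalized between arrays by quantiles, and summarised with a probe model that is additive on the log scale. The deposited Expression Console values are log2 RMA levels. The submitters' processing notes also name Partek. Array medians of the Aroma table were 48.8 to 52.1 in BSM and 42.8 to 45.2 in BMDM.

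Aroma intensity was taken to log2 and fitted with limma 3.58.1 in R 4.3.3 (lmFit and eBayes, BSM minus BMDM), with Benjamini-Hochberg adjustment over all 21837 rows at 0.05. Of these rows 18821 had 1 gene symbol, 763 several and 2253 none, and 2858 symbols were updated by GEO platform annotation and RefSeq. On simulated data with 50 changed rows per size, 20% were recovered at a log2 change of 0.5, 70% at 1, 96% at 2 and 100% at 4. There were 6 false calls. The simulation changed far fewer rows than the 10838 called in the data, so these rates need not hold for the data.

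The genes and lists were chosen with earlier results of these data known, so no test over a list was run. Array values are given for the lowest and highest difference in each role, for genes that did not pass or were higher in BSM, for genes that differed between tables, and for the largest called changes in each further list. The p-values measure only the spread between these pools, and the number of arrays limits precision. Alternatives covered the other table, a replicate block, sex, each array left out, centring, quantile normalization, a filter on dim rows, other eBayes settings, array weights and other tests.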

Additional observations from a re-analysis of the deposited data

How the results depend on the processing

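Over 18 alternative analyses 40 of the 44 replication genes kept their direction and their side of the threshold wherever they were measured, the exceptions being Orc2, Orc3, Orc4 and Orc5. The count of genes lower in BSM was 38 of the 41 genes left on the brighter part of the rows. On both forms of the Expression Console table it was 39 of 42. It was 40 or 41 of 44 in the other alternatives, and 36 of 44 when calls also needed 2-fold. The count of genes higher in BSM, 2 in the Aroma fit, was 1 with the replicate block, 1 with sex as a covariate, 1 by the methods' t-test on linear values, 1 by analysis of variance, 0 on the Expression Console table and on its rows with 1 symbol, 0 after centring, 0 at 2-fold, 0 to 2 when 1 array was left out, and 3 on the brighter part of the rows, after a further quantile normalization and with array weights. Same-numbered arrays of the cell types had correlations of their deviations of 0.0649, 0.0021 and 0.0112 and did not all correlate best with their own number, so the numbers were not taken as pairs, although both replicate 1 pools share a sex label and a use in sequencing, and the replicate block gave 10319 rows called and 40 replication genes lower. The median difference was -2.03 on both forms of the Expression Console table and -1.96 after centring. Rows called over the whole table numbered 10838, against 6734 on the Expression Console table, 5756 on its rows with 1 symbol and 3506 at 2-fold. Orc3 changed sign on both forms of that table, at -0.0070. The E2F motif counted by its 7-letter core was found for 25 genes instead of 16. The cause of these changes was not tested. Signals near the level of receptor rows limit the folds of 10 genes in BSM, and 3 arrays per cell type limit calls of small changes.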

Other observations

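The 2 programs differed most among the replication genes for Tk1, whose difference between BSM and BMDM was -1.75 on the Aroma table and -3.43 on the Expression Console table. Its BSM mean was 6.20 on the Aroma table and 4.27 on the other, while its BMDM mean was 7.95 and 7.71. Among the mitotic genes Ube2c, the ubiquitin carrier of the anaphase-promoting complex, ran the other way, at -5.77 on the Aroma table and -3.03 on the Expression Console table. Both genes were lower in BSM on both tables.

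The progenitor list held genes that opposed the replication genes. Cd34 measured 10.3, 10.5 and 10.7 in BSM, against 6.99, 6.70 and 5.92 in BMDM, and Sox4 8.11, 8.19 and 8.18 in BSM, against 5.42, 5.57 and 5.63 in BMDM. Both were higher in BSM on every array.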
